A study of Bos taurus with 9 samples.

Results

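The extracellular proteinases and inhibitors described here were the 56 genes, of 17162 in the FPKM table, whose symbol is MMP, TIMP, ADAM or ADAMTS followed only by a number. They were 20 MMP, 4 TIMP, 14 ADAM and 18 ADAMTS genes. They were measured by mRNA-seq in 9 libraries of bovine endometrial cells (BEND), with 3 replicates in each of 3 groups. CON cells received no hormone. GA cells received estradiol (E2, 1 nM) and progesterone (P4, 100 nM), and GB cells received the same hormones followed by interferon tau (IFNT, 100 ng/mL). All cells were wild type, were grown in DMEM/F12 with serum, and came from abattoir uteri of Holstein cows. The labels give 12 h of treatment. In the study's methods the GB cells had 12 h of hormones before a further 12 h with IFNT. The collection times of CON and GA cells are not given, and a change to fresh medium is described only for treated cells. Culture time and IFNT therefore cannot be told apart in the comparisons with GB. Nor can culture time, the medium change and the hormones be told apart in GA vs. CON. The number of donor cows is not given either, and the p-values therefore measure only the spread between these libraries, which may be technical.

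Matrix metalloproteinases (MMPs) are zinc enzymes that cut collagens and other matrix proteins, and the tissue inhibitors of metalloproteinases (TIMPs) block them by binding the active site. The ADAM enzymes sit in the cell membrane and release growth factors, cytokines and receptors from the cell surface, while the ADAMTS enzymes are secreted and cut proteoglycans and procollagens. In the uterus these families are known for remodelling of the endometrial matrix during the cycle and around attachment of the conceptus. IFNT is the type I interferon by which the ruminant conceptus signals its presence to the mother.

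FPKM values, in which fragment counts are divided by gene length and by library size, were used throughout, so levels of different genes can be set side by side. Summed FPKM ran from 1395622 to 1442723 across libraries, and 14452 to 14893 genes per library were above 0. The labels call the cells primary epithelial cells. Of the epithelial markers, 9 were in the table and 0 reached a mean of 0.5 FPKM, with a highest single value of 0.740. The sum over these 9 markers was 0.540 to 1.77 FPKM in CON libraries, 1.39 to 1.72 in those of GA and 1.33 to 2.23 in those of GB. KRT18, the cytokeratin by which the study stained the cells, was at 0.160 to 0.410 FPKM in CON. The study reported the cells positive in that immunofluorescence, which measures protein and not RNA. KRT8 was listed at 0 in 2 of the 3 CON libraries. All 10 stromal fibroblast markers were present, with mean levels from 167 (PDGFRA) to 8539 FPKM (VIM) and a sum of 17187 to 17787 for CON, 17401 to 17834 for GA and 15635 to 15773 for GB. By these markers the RNA did not carry the epithelial program that the label names, and the cells are called BEND here only after the study. The sum of the 6 immune markers in the table was 20.8 to 27.6 FPKM, most of it CD14, and that of the 5 endothelial markers was 1.57 to 3.44 FPKM. In GB vs. CON, by the test described below, 4 of the 10 stromal markers fell and 1 rose, among them VIM (log2FC −0.22) and PDGFRA (0.38). Of all tested genes 17.3% fell and 16.2% rose in that comparison. In GB vs. GA 5 stromal markers fell and 1 rose, against 19.2% and 9.87% of all tested genes. In GA vs. CON 2 rose (DCN 0.39 and LUM 0.24) and 1 fell (PDGFRB −0.34), against 0.246% and 0.207% of all tested genes. CDH5, the endothelial marker that passed the filter, rose in GB vs. GA (log2FC 0.68, adjusted p = 0.0395). The part of cell composition in the results below was not tested, and in bulk RNA fewer cells of a type and less RNA per cell cannot be told apart.

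In levels, these families were led by inhibitors and by MMP2. TIMP1, a secreted inhibitor of most MMPs, had the highest mean over the 9 libraries, 2571 FPKM, and stood at rank 89 of all genes. MMP2, the gelatinase that also cuts basement membrane collagen, followed at 2385 FPKM (rank 100). TIMP3, the inhibitor that binds to the matrix and also blocks several ADAM and ADAMTS enzymes, was at 1055 FPKM, and TIMP2, which takes part in the activation of proMMP2, at 865 FPKM. These 4 genes held 83.7% of the summed FPKM of all 56. MMP14, the membrane-bound enzyme that activates proMMP2, came next at 468 FPKM. ADAM9, a widely expressed membrane proteinase, was at 173 FPKM, and MMP3 (stromelysin-1), which cuts proteoglycans, fibronectin and several proMMPs, at 129. Below these, 14 genes lay between 10 and 100 FPKM, 16 between 0.5 and 10, and 19 under a mean of 0.5.

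TIMP1 and MMP2 could not be ranked against each other in every group. In CON the TIMP1 values were 2164, 2499 and 2280 FPKM and those of MMP2 were 2376, 2341 and 2380. These ranges overlap. In GA and GB every TIMP1 value lay above every MMP2 value. TIMP3 was above TIMP2 in CON and GA without overlap, and in GB its lowest value, 921 FPKM, lay below the highest TIMP2 value, 981.

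**Figure D1:**
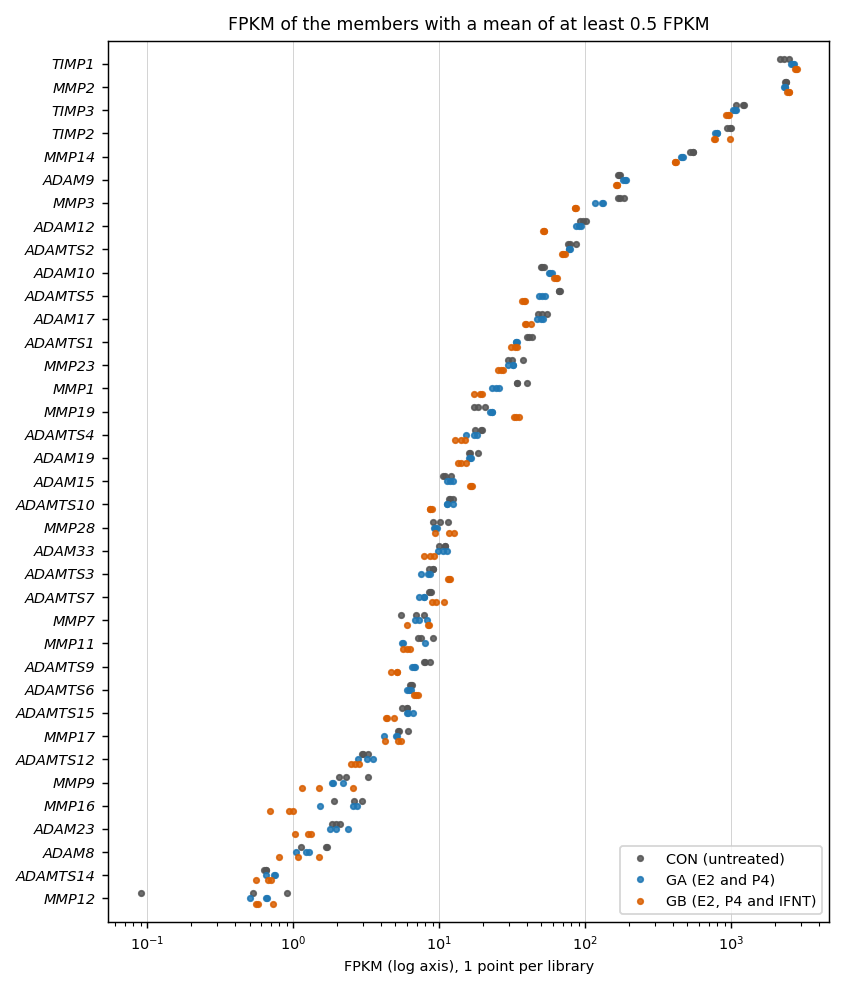
Levels of the 37 members with a mean of at least 0.5 FPKM. Each point is 1 library, the x axis is FPKM on a log scale, colours mark CON, GA and GB, and genes are ordered by their mean over the 9 libraries, from 2571 FPKM for TIMP1 to 0.574 for MMP12.

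The 19 genes with a mean under 0.5 FPKM were left out of the tests. They were MMP8, MMP13, MMP15, MMP20, MMP24, MMP25, MMP27, TIMP4, ADAM11, ADAM20, ADAM21, ADAM22, ADAM32, ADAMTS8, ADAMTS13, ADAMTS17, ADAMTS18, ADAMTS19 and ADAMTS20. The highest single value among them was 0.600 FPKM, in MMP25. MMP8 and MMP13, the other collagenases beside MMP1, were each above 0 in 1 library only, at 0.0800 FPKM. MMP27 and ADAMTS18 were likewise above 0 in a single library. TIMP4 was at 0, 0.44 and 0.22 FPKM in CON, 0.44, 0.21 and 0 in GA, and 0.21, 0 and 0 in GB. ADAM20 and ADAM21 are adjacent and similar genes, and the table describes the product of both as protein 20, so reads may be split between them. Genes at these levels were not in the test, and the values that follow were picked out after they were seen. MMP25, a membrane-type MMP of leukocytes, was at 0.23, 0.6 and 0.32 FPKM in CON, 0.34, 0.37 and 0.52 in GA, and 0.16, 0.19 and 0.17 in GB, with every GB library below all others. ADAMTS13, which cuts von Willebrand factor, ranged from 0.14 to 0.17 FPKM over the CON libraries and from 0.07 to 0.1 over those of GB, again without overlap, while its GA values of 0.18, 0.07 and 0.24 overlapped both. ADAMTS17 went the other way, also without overlap between CON and GB. It was at 0 in every CON library, at 0.05, 0.05 and 0 FPKM in GA, and at 0.05, 0.03 and 0.03 in GB. How many of all genes at such levels lacked overlap was not counted, so no shared direction is read from these genes.

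Differences were tested on log2(FPKM + 0.5) with limma over all 12578 genes with a mean of at least 0.5 FPKM, of which 37 were members. They were 13 MMP, 3 TIMP, 9 ADAM and 12 ADAMTS genes. P-values were adjusted by the Benjamini-Hochberg method. A DEG was a gene whose adjusted p was under 0.05 and whose log2FC exceeded 1 in size, and "rose" or "fell" means an adjusted p under 0.05 whatever the fold. On this scale a log2FC understates the change of low genes. All 3 comparisons come from a single fit and share libraries pairwise, so they are not independent of one another. The median of the mean FPKM was 13.1 over the 37 members and 22.1 over all tested genes.

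With hormones and IFNT together (GB vs. CON), the matrix-cutting enzymes MMP1, MMP3, MMP14 and MMP16, the sheddases ADAM12 and ADAM17 and all 5 tested ADAMTS proteoglycanases were lower, while MMP19, ADAM15, ADAMTS3, ADAM10 and TIMP1 were higher. In all, 18 of the 37 members fell (48.6%) and 5 rose (13.5%), against 17.3% and 16.2% of all tested genes. The DEGs among them were 2, MMP3 and MMP16, both lower, and 0 were called higher. Over all genes 1.07% were called lower and 2.94% higher. The median log2FC was −0.29 over the members and −0.02 over all tested genes. With read GC content as a covariate 7 fell and 4 rose, so that 63.6% of the moved members were lower instead of 78.3%. The calls lost were those of MMP23, TIMP3, ADAM17, ADAM19, ADAM23, ADAM33, ADAMTS1, ADAMTS2, ADAMTS9, ADAMTS10 and ADAMTS15 among the falls and that of ADAMTS3 among the rises. The share of all tested genes that moved with this covariate was not counted, so 17.3% and 16.2% are no measure for these counts. With the covariate the median log2FC was −0.25 over the members and −0.09 over all tested genes. With the replicate block added these medians were −0.11 and −0.06, much closer together than without covariates. By family, 5 of 13 MMPs, 1 of 3 TIMPs, 5 of 9 ADAMs and 7 of 12 ADAMTS genes fell.

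IFNT added to hormone-treated cells (GB vs. GA) was compared next. In that comparison 15 members fell (40.5%) and 4 rose (10.8%), against 19.2% and 9.87% of all tested genes, and 0 were DEGs. The share of all genes called was 0.978% lower and 2.66% higher. The median log2FC was −0.15 over the members and −0.08 over all genes. The count of falls is the one most open to scaling, since with median-of-ratios factors 9 fell and 6 rose, so that 60.0% of the moved members were lower instead of 78.9%. With library sums made equal it was 12 and 6 (66.7% lower). In the main fit 64.9% of the members and 62.3% of all tested genes had a log2FC below 0. With median-of-ratios factors the median log2FC was −0.07 over the members and −0.003 over all genes. With equal library sums these medians were −0.12 and −0.05. The split of all moved genes under these scalings was not counted.

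With hormones alone (GA vs. CON), 4 of the 37 members fell, MMP1, MMP3, MMP14 and ADAMTS5, and 0 rose. That is 10.8% of the members, against 0.207% of all tested genes that fell and 0.246% that rose. At an unadjusted p under 0.05, 8 members were lower and 4 higher, against 550 lower and 1880 higher of all 12578 genes. None was a DEG, a category that held 0.0318% (higher) and 0.0398% (lower) of all genes. The median log2FC was −0.07 over the members and 0.06 over all genes. The 4 falls rest on a small number of libraries: the count was 0 without CON1 or GA2, 1 without GA1 or GA3, 2 without CON2, 3 without CON3, GB1 or GB2, and 5 without GB3. It was also 0 when only CON and GA were fitted and with read GC content as a covariate, and 1 without the variance trend.

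**Figure D2:**
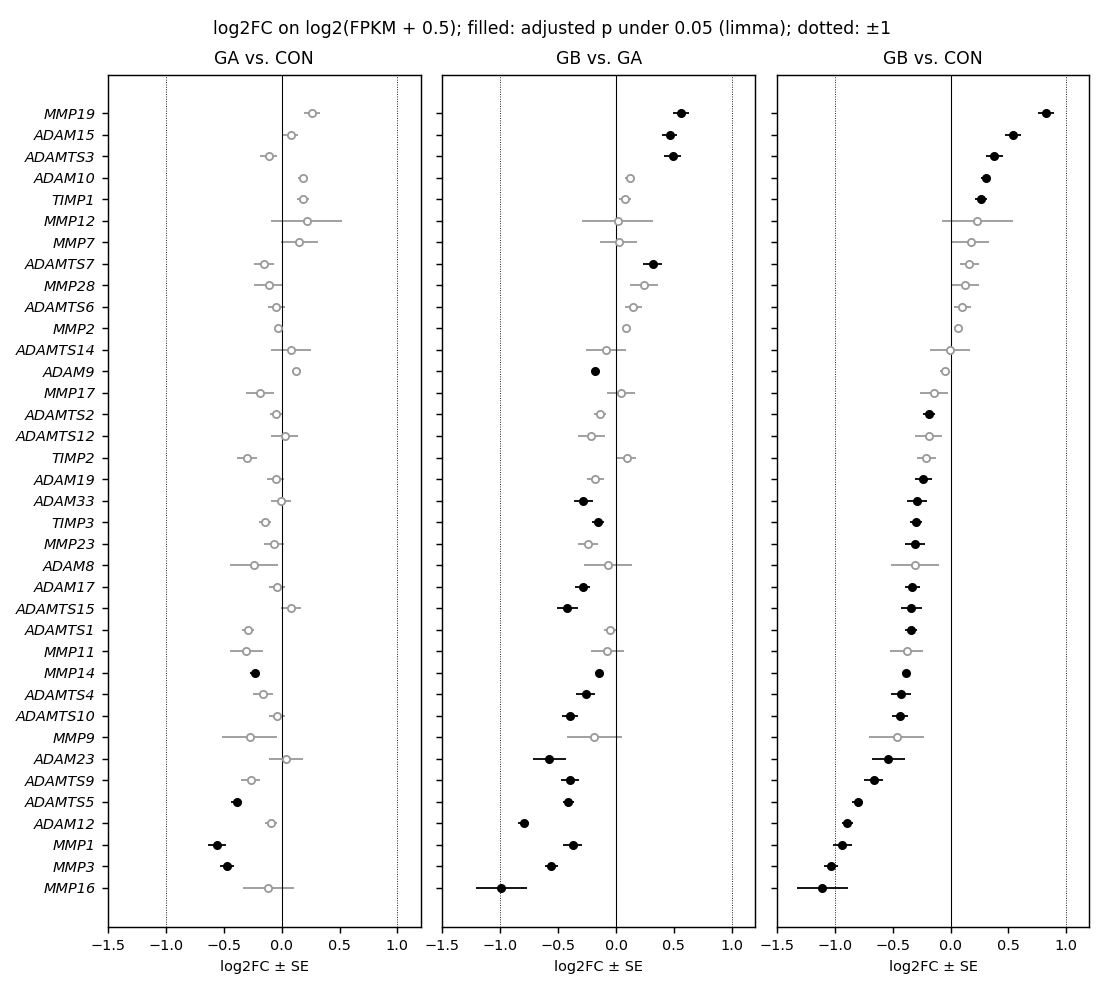
log2FC with its SE for the 37 tested members in the 3 comparisons, ordered by GB vs. CON. Filled points have an adjusted p under 0.05 and dotted lines mark a log2FC of −1 and 1. MMP3 and MMP16 pass −1 in GB vs. CON, and MMP19 is farthest to the right in both comparisons with GB.

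Among the collagenases and stromelysins, MMP1 and MMP3 fell in every comparison. MMP3 was at 172, 168 and 185 FPKM in CON, 116, 131 and 132 in GA, and 84.9, 85.2 and 85.9 in GB. No library of a group overlapped another group, and GB was the tightest, with an SD of 0.529. Its log2FC was −0.47 in GA vs. CON (SE 0.059, adjusted p = 0.0154), −0.56 in GB vs. GA (adjusted p = 0.000127) and −1.03 in GB vs. CON (adjusted p = 1.42e-06). Without CON3 the last value was −0.99, short of the fold threshold but still with an adjusted p under 0.05. MMP1, the interstitial collagenase that opens fibrillar collagen, was at 34.2, 34.0 and 39.8 FPKM in CON, 22.9, 24.3 and 25.6 in GA, and 17.2, 19.4 and 19.1 in GB. Again the 3 groups did not overlap. The log2FC of MMP1 was −0.56 (SE 0.080, adjusted p = 0.0315) in GA vs. CON, −0.38 (adjusted p = 0.00753) in GB vs. GA and −0.93 (adjusted p = 2.73e-05) in GB vs. CON. The GA vs. CON call of MMP1 was lost without CON1, CON2 or any GA library, and that of MMP3 without CON1, GA2 or GA3. MMP11 (stromelysin-3) was at 7.92 ± 1.01 FPKM (SD, n = 3) for CON, 6.38 ± 1.39 for GA and 5.95 ± 0.355 for GB, and did not pass in any comparison.

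MMP1 and MMP3 lie side by side in a run of 8 MMP genes, ordered MMP13, MMP12, MMP3, MMP1, MMP8, MMP27, MMP20 and MMP7 in the RefSeq gene table. Between MMP1 and MMP8 that table also places the protein-coding genes LOC112441463 and LOC100848277, which are outside the naming rule and not described here. That table follows assembly ARS-UCD2.0 while the files use ARS-UCD1.2, so only the order of genes was taken from it. All 56 symbols were found in it. Levels of the MMP genes along this run differed widely. MMP3 (129 FPKM) and MMP1 (26.3) were the most abundant of them. MMP7, the matrilysin of epithelia, was at 7.25 and MMP12, the macrophage elastase, at 0.574, and the remaining 4 MMP genes were under 0.5. The fall of MMP1 and MMP3 was not seen in MMP7, which was at 6.87, 5.42 and 7.79 FPKM in CON, 6.83, 7.26 and 8.22 in GA, and 8.49, 6.03 and 8.36 in GB. Its groups overlapped and the log2FC in GB vs. CON was 0.17 (SE 0.16, adjusted p = 0.433).

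Of the gelatinases, MMP2 hardly moved. It was at 2376, 2341 and 2380.0 FPKM in CON, 2291, 2335 and 2334 in GA, and 2494, 2407 and 2503 in GB. The GB libraries were the highest, and the log2FC was 0.06 in GB vs. CON (SE 0.033, adjusted p = 0.185) and 0.09 in GB vs. GA (adjusted p = 0.0714). In GB vs. GA it passed under each alternative scaling between libraries. MMP9, the other gelatinase, was far lower, at 2.52 ± 0.622 FPKM in CON, 1.97 ± 0.177 in GA and 1.74 ± 0.743 in GB, with overlapping libraries.

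Among the membrane-type MMPs, MMP14 and MMP16 fell and MMP17 did not pass. MMP14 was at 518, 551 and 543 FPKM in CON, 450.1, 456 and 463 in GA, and 409, 418 and 408 in GB, so that each group lay apart from the next. Its log2FC was −0.23 in GA vs. CON (SE 0.036, adjusted p = 0.0380), −0.15 in GB vs. GA (adjusted p = 0.0141) and −0.38 in GB vs. CON (adjusted p = 5.28e-05). The GA vs. CON call was lost whichever library was left out, except GB3, and the GB vs. GA call was lost without GA3 and with median-of-ratios factors. The ratio of MMP2 to MMP14 FPKM was 4.41 ± 0.171 (SD, n = 3) in CON cells, 5.08 ± 0.0420 in GA cells and 5.99 ± 0.201 in GB cells. MMP16, a relative of MMP14, was much less abundant. It was at 2.93, 1.90 and 2.60 FPKM in CON, 1.52, 2.57 and 2.74 in GA, and 0.690, 0.930 and 1.00 in GB. The GB libraries lay below all others, while CON and GA overlapped. The log2FC of MMP16 was −1.11 in GB vs. CON (SE 0.22, adjusted p = 0.00454), −0.99 in GB vs. GA (adjusted p = 0.00912) and −0.11 in GA vs. CON. With so low a level the fold depends on the pseudocount. In GB vs. CON it was −1.40 with 0.1 and −0.88 with 1, the latter no longer a DEG, nor was it without CON1 (−0.997). Read GC content as a covariate gave −1.84 (adjusted p = 0.0118), and with the replicate block added −2.05, which no longer passed (adjusted p = 0.0671). In GB vs. GA it became a DEG with a pseudocount of 0.1 (−1.26) and without GA1, GB2 or GB3 (−1.21, −1.02 and −1.06).

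MMP19, an enzyme of basement membrane components, was the MMP that rose. It was at 20.6, 17.4 and 18.5 FPKM in CON, 22.3, 22.8 and 22.9 in GA, and 32.4, 35.3 and 33.5 in GB. The GB libraries stood clear of the other 6, and the GA libraries also lay above those of CON. The log2FC was 0.83 in GB vs. CON (SE 0.068, adjusted p = 2.03e-05), 0.56 in GB vs. GA (adjusted p = 0.000318) and 0.26 in GA vs. CON, where it did not pass (adjusted p = 0.111). MMP23, a membrane-anchored MMP without the usual hemopexin domain, fell in GB vs. CON (log2FC −0.31, adjusted p = 0.0218). Its values were 29.6, 37.5 and 31.4 FPKM in CON, 31.9, 32.0 and 29.7 in GA, and 25.1, 27.4 and 26.5 in GB. This call was lost without GB1 or GB3. MMP28 (epilysin) did not pass in any comparison.

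The 3 tested TIMPs went different ways. TIMP1 rose in GB vs. CON, from 2164, 2499 and 2280 FPKM to 2802, 2778 and 2731, with 2573, 2627 and 2684 in GA. All treated libraries lay above all CON libraries. The log2FC of TIMP1 was 0.26 in GB vs. CON (SE 0.052, adjusted p = 0.00429), 0.19 in GA vs. CON (adjusted p = 0.125) and 0.08 in GB vs. GA (adjusted p = 0.310). TIMP3 fell in GB vs. CON, from 1078, 1226 and 1193 FPKM to 961, 921 and 954, with 1032, 1071 and 1060 in GA. Its log2FC was −0.30 in GB vs. CON (SE 0.050, adjusted p = 0.00173) and −0.16 in GB vs. GA (adjusted p = 0.0418), and the latter was lost when any single GA or GB library was left out and under each alternative scaling. The ratio of TIMP1 to TIMP3 FPKM was 1.99 ± 0.0669 in CON, 2.49 ± 0.0392 in GA and 2.93 ± 0.0780 in GB.

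For TIMP2, library GB3 stood apart. TIMP2 was at 975, 992 and 933 FPKM in CON, 793, 769 and 792 in GA, and 779, 765 and 981 in GB. GB1 and GB2 lay with the GA libraries, below CON, and GB3 lay within the CON range. With all 9 libraries the log2FC was −0.21 in GB vs. CON (SE 0.084, adjusted p = 0.0862) and −0.30 in GA vs. CON (adjusted p = 0.127), and neither passed. Without GB3 they were −0.32 (adjusted p = 0.00103) and −0.30 (adjusted p = 0.0221). This fit is quoted because the TIMP2 value of GB3 was seen to stand apart, so these p-values are not a test of TIMP2. TIMP4 was below the level tested.

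**Figure D3:**
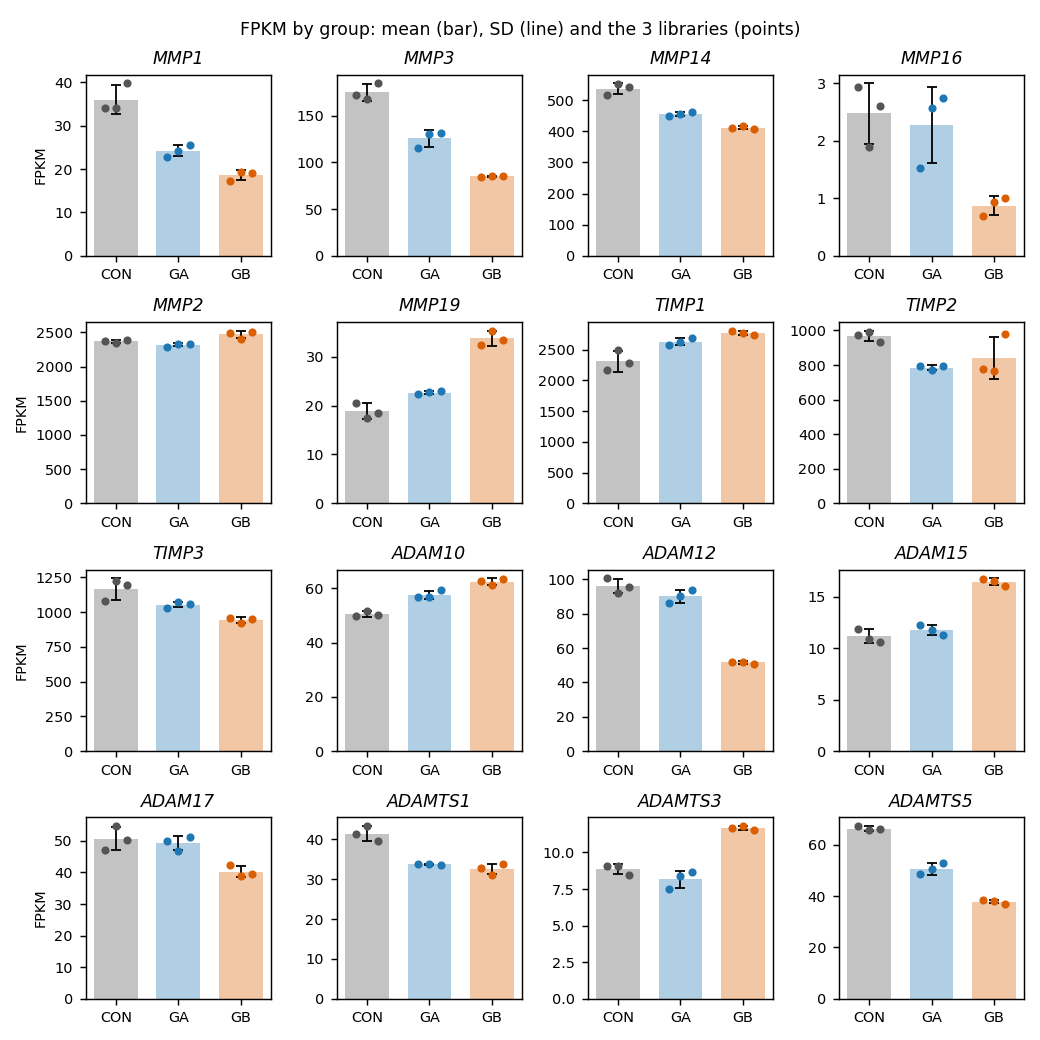
FPKM of 16 members in each group. Bars start at 0 and give the mean, lines the SD of 3 libraries, and points the libraries. MMP3 steps down from CON to GA to GB, MMP19, ADAM15 and ADAMTS3 are highest in GB, and 1 GB library of TIMP2 sits at 981 FPKM, at the level of CON.

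Of the 8 ADAM genes tested that encode active proteinases, 4 fell and 2 rose in GB vs. CON, against 17.3% and 16.2% of all tested genes. ADAM12, a proteinase of mesenchymal and placental cells, showed the largest change of these. It was at 101, 92.3 and 95.7 FPKM in CON, 86.4, 90.1 and 93.9 in GA, and 51.8, 52.1 and 50.9 in GB. CON and GA overlapped, and all GB libraries were far below. The log2FC was −0.89 in GB vs. CON (SE 0.049, adjusted p = 9.85e-07), −0.80 in GB vs. GA (adjusted p = 2.35e-06) and −0.09 in GA vs. CON (adjusted p = 0.323). ADAM15, a membrane proteinase with an integrin-binding disintegrin domain, rose from 11.9, 11.0 and 10.6 FPKM in CON, and 12.3, 11.8 and 11.3 in GA, to 16.7, 16.6 and 16.1 in GB. Its log2FC was 0.54 in GB vs. CON (SE 0.067, adjusted p = 0.000298) and 0.46 in GB vs. GA (adjusted p = 0.000878).

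Of the general sheddases, ADAM10, which cuts NOTCH receptors and cadherins, was at 49.8, 51.7 and 50.3 FPKM in CON, 56.7, 56.8 and 59.4 in GA, and 62.9, 61.2 and 63.4 in GB. Every group lay above the one before, and the log2FC was 0.30 in GB vs. CON (SE 0.043, adjusted p = 0.000677), 0.19 in GA vs. CON (adjusted p = 0.0861) and 0.12 in GB vs. GA (adjusted p = 0.0700). ADAM17, which releases TNF and EGF receptor ligands and was named here after its values were seen, was at 47.2, 54.7 and 50.2 FPKM in CON, 49.9, 46.7 and 51.1 in GA, and 42.3, 38.9 and 39.5 in GB. CON and GA overlapped while GB lay below both. Its log2FC was −0.33 in GB vs. CON (SE 0.066, adjusted p = 0.00454) and −0.29 in GB vs. GA (adjusted p = 0.0100). The GB vs. GA call was lost with median-of-ratios factors (adjusted p = 0.0506). In GB vs. CON the direction of ADAM17 did not hold with read GC content and the replicate block together as covariates, where the log2FC was 0.0099 (adjusted p = 0.980).

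ADAM9, the most abundant ADAM, was at 171, 168 and 170.0 FPKM in CON, 181, 188 and 189 in GA, and 163, 164 and 165 in GB. It fell in GB vs. GA (log2FC −0.18, SE 0.035, adjusted p = 0.00494) and did not pass in GB vs. CON (log2FC −0.05). Its GB vs. GA call was lost with median-of-ratios factors. ADAM23, an ADAM without the zinc-binding motif that works in cell adhesion, was at 1.95, 2.08 and 1.85 FPKM in CON, 2.35, 1.79 and 1.97 in GA, and 1.26, 1.03 and 1.31 in GB. It fell in GB vs. CON (log2FC −0.54, SE 0.14, adjusted p = 0.0194) and in GB vs. GA (log2FC −0.58, adjusted p = 0.0160), calls lost without GB2 in either comparison, without CON2 in the first and without GA1 in the second. ADAM19 and ADAM33 had smaller falls in GB vs. CON (log2FC −0.23 and −0.29), and these were lost without several single libraries. ADAM8 did not pass.

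All 5 tested ADAMTS proteoglycanases fell in GB vs. CON, a comparison in which 17.3% of all tested genes fell. With read GC content as a covariate the calls of ADAMTS1, ADAMTS9 and ADAMTS15 were lost. Of the 5, only ADAMTS5 passed under all 21 other settings. ADAMTS5 and ADAMTS4, the main aggrecanases, ADAMTS1, ADAMTS9 and ADAMTS15 cut aggrecan and versican. ADAMTS1, ADAMTS4 and ADAMTS9 were not among the genes set to be named, and were named after their values were seen. ADAMTS5 was at 67.3, 65.7 and 66.0 FPKM in CON, 48.5, 50.5 and 53.0 in GA, and 38.4, 38.2 and 37.0 in GB. Its groups were separate, as for MMP1 and MMP3. The log2FC of ADAMTS5 was −0.39 in GA vs. CON (SE 0.047, adjusted p = 0.0154), −0.41 in GB vs. GA (adjusted p = 0.000204) and −0.80 in GB vs. CON (adjusted p = 1.73e-06). The first of these calls was lost without CON1, GA1 or GA2.

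ADAMTS1 lies next to ADAMTS5 in the gene table and had another course. It was at 41.4, 43.3 and 39.5 FPKM in CON, 33.8, 33.7 and 33.6 in GA, and 32.9, 31.2 and 33.8 in GB. The GA and GB libraries overlapped and all lay below CON. Its log2FC was −0.29 in GA vs. CON (SE 0.053, adjusted p = 0.0579), −0.34 in GB vs. CON (adjusted p = 0.00117) and −0.05 in GB vs. GA. In GA vs. CON it passed under each alternative scaling between libraries. ADAMTS15 had the reverse order of steps, with 6.01, 5.54 and 5.96 FPKM in CON, 5.97, 6.12 and 6.55 in GA, and 4.30, 4.37 and 4.89 in GB. It fell in GB vs. GA (log2FC −0.42, SE 0.087, adjusted p = 0.00646) and in GB vs. CON (−0.34, adjusted p = 0.0161), the latter lost without GB1 or GB2. ADAMTS9 fell against CON (−0.66) and against GA (−0.40) in the GB libraries, as did ADAMTS4 (−0.43 and −0.26), whose GB vs. GA call was lost under several alternatives and without CON1, CON3, GA2, GA3, GB1 or GB2.

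The procollagen N-proteinases, which trim fibrillar procollagens so that they can assemble, did not move together. ADAMTS2, the most abundant ADAMTS gene, was at 75.7, 86.8 and 78.4 FPKM in CON, 77.5, 76.9 and 78.3 in GA, and 72.0, 69.5 and 69.9 in GB. It fell in GB vs. CON by a small amount (log2FC −0.18, SE 0.054, adjusted p = 0.0273), a call lost without GB2 or GB3. With read GC content and the replicate block the log2FC of ADAMTS2 turned to 0.068 (adjusted p = 0.761). ADAMTS3, which also processes VEGFC, rose. It was at 9.09, 9.04 and 8.48 FPKM in CON, 7.51, 8.37 and 8.64 in GA, and 11.7, 11.8 and 11.5 in GB, with GB above every other library. The log2FC of ADAMTS3 was 0.38 in GB vs. CON (SE 0.073, adjusted p = 0.00395) and 0.49 in GB vs. GA (adjusted p = 0.00109). ADAMTS14, at 0.664 FPKM over the 9 libraries, did not pass.

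Of the other ADAMTS genes tested, ADAMTS10 and ADAMTS7 changed and ADAMTS6 and ADAMTS12 did not pass. ADAMTS10, which acts on fibrillin microfibrils, was at 11.6, 11.9 and 12.4 FPKM in CON, 12.4, 11.3 and 11.3 in GA, and 8.63, 8.66 and 8.86 in GB. CON and GA overlapped and GB was below both. It fell in GB vs. CON (log2FC −0.44, SE 0.067, adjusted p = 0.00112) and in GB vs. GA (−0.40, adjusted p = 0.00223). ADAMTS7, which cuts cartilage oligomeric matrix protein, was at 8.69, 8.59 and 8.42 FPKM in CON, 7.80, 7.89 and 7.29 in GA, and 10.8, 8.85 and 9.44 in GB. It rose in GB vs. GA (log2FC 0.32, SE 0.084, adjusted p = 0.0201), a call lost without GA3 or GB1, and did not pass in GB vs. CON (0.16).

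Summed over families, the most abundant genes set the totals. The MMP sum was 3202 ± 28.2 FPKM (SD, n = 3) in CON cells, against 3014 ± 42.7 in GA and 3077 ± 46.3 in GB. Without MMP2 it was 837 ± 22.7, 694 ± 18.5 and 609 ± 8.22. The TIMP sum was 4447 ± 252 in CON, 4467 ± 69.4 in GA and 4557 ± 102 in GB. The ratio of the TIMP to the MMP sum was 1.39 ± 0.0822 in CON, 1.48 ± 0.00881 in GA and 1.48 ± 0.0166 in GB. Library CON2, at 1.48, lay within the range of the treated libraries. The ADAM sum was 410.1 ± 1.26, 425 ± 9.97 and 360.4 ± 3.44, and the ADAMTS sum 261 ± 5.84, 229 ± 3.56 and 205 ± 3.91, for CON, GA and GB. Most of the lower ADAM sum in GB came from ADAM12, with means of 96.2 FPKM in CON, 90.1 in GA and 51.6 in GB. ADAM10 and ADAM15 went the other way. These sums describe mRNA, and say nothing of how much enzyme was active.

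**Figure D4:**
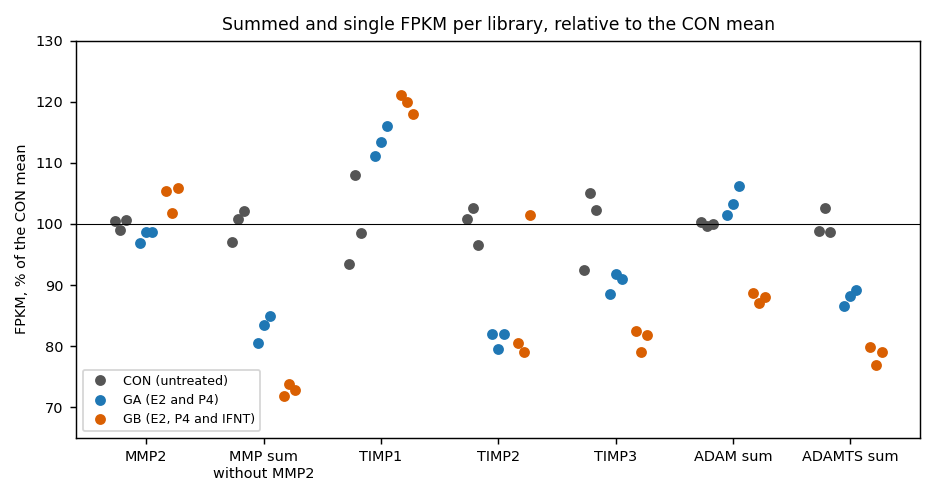
FPKM of MMP2, the other MMPs summed, TIMP1, TIMP2, TIMP3, and the ADAM and ADAMTS sums in each library, as a percentage of the CON mean on the y axis. Points are libraries. The MMP sum without MMP2 and the ADAMTS sum step down from CON to GA to GB, and the ADAM sum drops in GB only, from a mean of 410.1 FPKM in CON to 360.4.

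Genes that work with these enzymes were taken from lists of regulators and partners outside the naming pattern. Unlike those of the members, their calls were not examined under other settings or with single libraries left out. Of 33 tested, 10 fell (30.3%) and 5 rose (15.2%) in GB vs. CON, against 17.3% and 16.2% of all tested genes. In GB vs. GA 9 fell (27.3%) and 5 rose (15.2%), against 19.2% and 9.87% of all tested genes. The median log2FC of the 33 was −0.10 in each comparison with GB, against −0.02 (CON) and −0.08 (GA) over all tested genes. The DEG among them was SPOCK2, a matrix proteoglycan of the testican group, which was at 8.15, 8.34 and 6.51 FPKM in CON, 4.62, 5.64 and 5.58 in GA, and 3.39, 3.8 and 2.68 in GB. Its log2FC in GB vs. CON was −1.11 (SE 0.145, adjusted p = 0.000415), in a comparison where 1.07% of all tested genes were called lower. THBS1, the matricellular protein thrombospondin-1, had the highest level of these genes and rose, from 4249 ± 379 FPKM (SD, n = 3) in CON and 4361 ± 192 in GA to 5810.5 ± 42.9 in GB.

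Values are given for 4 genes of plasminogen activation, named after their values were seen. Not every gene of this list is reported here, and those named were chosen among the falls, so they do not describe the list as a whole. PLAU (urokinase) and its receptor PLAUR fell in every comparison. PLAU was at 167, 200 and 182 FPKM in CON, 120, 124 and 144 in GA, and 101, 104 and 106 in GB. PLAUR was at 323, 373 and 346 FPKM in CON, 279, 268 and 273 in GA, and 217, 214 and 234 in GB. In neither gene did the libraries of any pair of groups overlap. The log2FC of GA vs. CON was −0.50 for PLAU (adjusted p = 0.0405) and −0.34 for PLAUR (adjusted p = 0.0476). How far these calls rest on single libraries was not examined. PLAT and SERPINE2 fell in both comparisons with GB.

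In the remaining lists, FURIN, a proprotein convertase that activates MMP14 and ADAM precursors, fell in GB vs. CON, from 104 ± 7.51 FPKM in CON and 93.4 ± 2.68 in GA to 78.0 ± 3.87 in GB (log2FC −0.41, adjusted p = 0.000843). Of the 8 tested partners of ADAM10 and ADAM17, TSPAN17 was the most abundant (log2FC −0.10 in GB vs. CON, adjusted p = 0.175). In that comparison 2 of the 8 rose and 0 fell, against 16.2% and 17.3% of all tested genes. ADAMTSL5 was the most abundant of the ADAMTS-like genes and fell in GB vs. CON (−0.31, adjusted p = 0.0170). PCOLCE, an enhancer of procollagen C-proteinases, fell too (−0.27, adjusted p = 0.00166).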

How the data were processed

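The deposited values were FPKM per gene and library, calculated by the authors and written to 2 decimals. Per the labels and the study's methods, reads were trimmed with fastp 0.21.0, rRNA reads were removed with Bowtie2, the rest was aligned to ARS-UCD1.2 with HISAT2 2.2.1 and counted per gene with RSEM 1.3.3. Neither the annotation release nor the use of strand is stated in those sources. Read counts, and sequences of the genes, were not used here, and depth in reads was not taken from the files.

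Groups came from the sample titles. No scaling was added before log2(FPKM + 0.5) was taken, and genes with a mean under 0.5 FPKM were left out. A mean per group was fitted with limma 3.58.1 in R 4.3.3, with a variance trend, over all 9 libraries. P-values were adjusted by Benjamini-Hochberg over all 12578 genes, and an adjusted p in the text comes from this fit. The authors' DESeq2 test used read counts. A single-gene exact permutation test of 3 against 3 libraries cannot give a p under 0.1. The fit was tested on simulated data. Named genes were all DEGs, the 5 largest rises and falls with an adjusted p under 0.05 in each comparison, the TIMPs, and the most abundant members overall and in each role group. Of the partner lists, DEGs and the most abundant gene of each were named. The values of 1 gene on these lists are not reported here. The members and lists were chosen with earlier results of these data known. Figures were drawn with matplotlib 3.10.9.

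As alternatives, the pseudocount was set to 1 or 0.1, the filter was dropped or raised to 1 FPKM, and the fit was repeated with equal library sums (TPM), median-of-ratios factors, quantile normalization, no variance trend, just the pair of groups under test, replicate number as a block, read GC content (from the study's sequencing table) as a covariate, the latter with the block, and each library left out.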

Additional observations from a re-analysis of the deposited data

How the results depend on the processing

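Of 2325 values of a member's log2FC under an alternative, 2169 stayed on the same side of an adjusted p of 0.05 with no reversal of a passing value, 127 lost it, 27 gained it and 2 reversed. The reversals were ADAMTS2 (0.068) and ADAM17 (0.0099) in GB vs. CON, with GC content as a covariate together with the replicate block. The falls of MMP1, MMP3, ADAM12 and ADAMTS5 and the rise of TIMP1 in GB vs. CON passed under all 21 settings. In GB vs. GA the same held for 11 members, and in GA vs. CON for 0.

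Member counts moved as follows, and the matching shares of all tested genes were not counted under the alternatives. The DEGs lower in GB vs. CON were 1 with a pseudocount of 1, 4 with the GC covariate (MMP1 and ADAM12 added), 3 with this covariate and the block (MMP1, MMP3 and ADAM12, without MMP16) and 1 to 2 with single libraries left out. Those lower in GB vs. GA were 1 instead of 0 with a pseudocount of 0.1, with the GC covariate and with this covariate and the block, and 0 to 1 with single libraries left out. The members that fell in GB vs. CON were 7 with the GC covariate and 4 with the block added, and those that rose were 1 with both. In GB vs. GA, 9 fell with median-of-ratios factors. In GA vs. CON, 1 fell without the variance trend, and 0 with only those groups fitted, with the GC covariate and with this covariate and the block, and single libraries left out gave 0 to 5. GC content differed between CON and the treated groups, so the covariate and the treatment cannot be told apart in full. The cause of the other shifts was not tested.

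The libraries showed no sign of pairing by replicate number. Deviations from the group means correlated at −0.0306 to 0.0772 between same-numbered libraries and at −0.0678 to 0.0565 between others. With 3 libraries per group these correlations cannot exclude a weak pairing. With the replicate block the counts that fell were 17 (GB vs. CON), 14 (GB vs. GA) and 3 (GA vs. CON), and those that rose stayed at 5, 4 and 0. The 3-library groups were not tested for outlying libraries.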
